A study of Caenorhabditis elegans with 2 samples.

Results

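The basic leucine zipper (bZIP) genes described here are the 10 Caenorhabditis elegans genes zip-1, zip-2, zip-3, zip-4, zip-5, zip-7, zip-8, zip-10, xbp-1 and atfs-1, of 19973 annotated protein-coding genes on the 6 nuclear chromosomes. They were chosen by name with the presence and deposited signal of RBM-26 peaks in these same lists already known, so their peaks are described and not tested. A gene was given a region where a peak touched it or where a peak summit lay within 1000 bp of it.

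RBM-26 is an RNA-binding protein, and ChIP-seq maps the DNA that copurifies with a tagged protein. The only group consisted of 2 biological replicates of whole young adult worms of strain OP801, grown for 66 hours from larvae that had been synchronised by starvation. Both replicates carried the fosmid transgene wgIs801, in which B0336.3 (rbm-26) is tagged with TY1, EGFP and 3xFLAG beside unc-119(+), in the unc-119(tm4063) background. Chromatin sheared to 200 to 800 bp was precipitated with an antibody to GFP, and since whole worms were used the cells behind a peak are not known.

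A bZIP protein pairs with a partner through its leucine zipper and grips DNA with the adjoining basic regions, and many proteins of the family bind sites built around the letters ACGT. Several C. elegans members switch on stress programmes. XBP-1 is made from a messenger RNA that IRE-1 splices when unfolded proteins build up in the endoplasmic reticulum (ER). ATFS-1 enters the nucleus when its import into mitochondria fails and starts the mitochondrial unfolded protein response, and ZIP-3 holds that response back. ZIP-2 acts in the response to Pseudomonas aeruginosa and to blocked translation, ZIP-1 in the response to intracellular pathogens, and ZIP-10 in death after cold stress.

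In the conservative list, which holds peaks that passed the irreproducible discovery rate (IDR) threshold when the replicates were compared with each other, 8 of the 10 genes had a region, against 14.5% of all protein-coding genes. Those 8 genes held 13 of the 2416 regions. Regions were found at xbp-1, atfs-1, zip-1, zip-2, zip-3, zip-4, zip-5 and zip-7, and none was found at zip-8 or zip-10. Among the 17257 genes of the length range that the 10 genes span, 684 to 11640 bp, 14.6% had a region. That range takes in most protein-coding genes, so this share is not matched for length. The 10 genes had a median length of 2803 bp, and all protein-coding genes one of 2027 bp. The genes xbp-1, zip-2, zip-7 and atfs-1 had 2 or more regions, which makes 4 of 10, against 2.76% of all protein-coding genes. The highest summits did not lie at one kind of place: they fell past the 3′ end at xbp-1, zip-2 and zip-7, before the start at atfs-1 and zip-4, and in an intron at zip-1, zip-3 and zip-5.

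**Figure D1:**
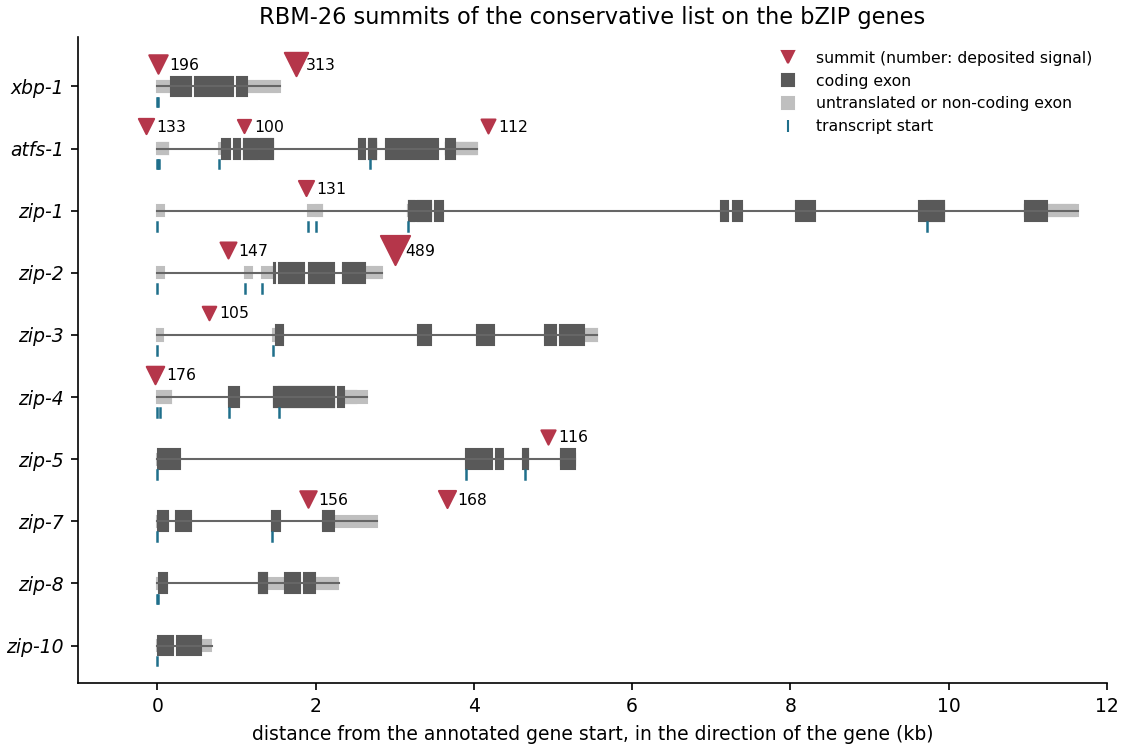
Summits of the conservative list on the 10 bZIP genes, with distance from the annotated gene start in kb on the x axis and 1 gene per row. Triangles mark summits and grow with the deposited signal, which is written beside each; the highest, 489, stands past the end of zip-2, and the rows of zip-8 and zip-10 are empty.

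The stretches of genome under these regions are shown because the kind of site differs from gene to gene. Each spans the 50 bases on either side of a summit, or an equal length that ends before an annotated transcript start, in ce11 (WBcel235), and is written 5′ to 3′ on the strand of the bZIP gene, in lower case. Capitals mark ACGTG or TGACGT on either strand. The pair at xbp-1 are the bases that end just before its annotated start, at chrIII:4193708-4193808 on the plus strand, and those centred on the summit past its 3′ end, at chrIII:4195507-4195607 on the plus strand. The atfs-1 window is centred 147 bp before its start, at chrV:14193466-14193566 on the plus strand. The zip-2 windows are centred on the summit past its 3′ end, at chrIII:835936-836036, and on its intronic summit, at chrIII:833824-833924, both on the plus strand. The zip-1 window ends at the base before an internal transcript start, at chrIII:12335542-12335642 on the plus strand. The zip-3 window is centred on its intronic summit, at chrII:13956750-13956850 on the minus strand, and the zip-7 window on its intronic summit, at chrIV:16503724-16503824 on the minus strand.
xbp-1 before the start: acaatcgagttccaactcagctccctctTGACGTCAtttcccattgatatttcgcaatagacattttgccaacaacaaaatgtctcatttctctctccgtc
xbp-1 past the 3′ end: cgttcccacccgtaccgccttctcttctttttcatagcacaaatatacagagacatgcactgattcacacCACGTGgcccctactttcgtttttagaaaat
atfs-1 before the start: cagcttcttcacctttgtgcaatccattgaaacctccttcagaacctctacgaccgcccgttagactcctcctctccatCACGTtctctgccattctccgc
zip-2 past the 3′ end: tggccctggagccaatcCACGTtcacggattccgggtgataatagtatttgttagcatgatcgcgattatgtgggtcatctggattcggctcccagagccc
zip-2 intron: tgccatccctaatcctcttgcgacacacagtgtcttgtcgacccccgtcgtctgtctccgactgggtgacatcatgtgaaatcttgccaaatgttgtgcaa
zip-1 intron: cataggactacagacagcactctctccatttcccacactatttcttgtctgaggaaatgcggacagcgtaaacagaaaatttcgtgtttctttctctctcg
zip-3 intron: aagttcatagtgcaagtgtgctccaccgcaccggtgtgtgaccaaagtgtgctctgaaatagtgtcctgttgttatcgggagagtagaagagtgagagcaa
zip-7 intron: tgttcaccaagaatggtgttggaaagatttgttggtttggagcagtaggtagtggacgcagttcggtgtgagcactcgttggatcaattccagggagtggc

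The ER factor gene xbp-1 (WBGene00006959, chrIII:4193809-4195358 on the plus strand, 1550 bp) had a region at each end. The region at its start, chrIII:4193628-4194330, had a deposited signal of 196 and its summit 13 bp inside the gene, in the 5′ untranslated region. At that summit the replicates had signals of 105 in replicate 1 and 97.0 in replicate 2. The stretch printed for the start of xbp-1 holds TGACGTCA, an 8-letter palindrome that contains TGACGT on both strands. The stronger region, chrIII:4195010-4195922, had a signal of 313 and its summit 199 bp past the 3′ end, in intergenic sequence. There the signals were 156 in replicate 1 and 160 in replicate 2, and 6.62% of all regions had a higher signal in the conservative list. Its printed stretch holds CACGTG, the one such match among the 13 windows. The neighbours lie apart from both regions: dnj-16 ends 379 bp before xbp-1, and asd-1 starts 1926 bp after it.

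At atfs-1 (WBGene00013878, chrV:14193663-14197700 on the plus strand, 4038 bp), the gene of the mitochondrial unfolded protein response factor, 3 weaker regions were spread from before the start to past the end. The region chrV:14193206-14193825 had a signal of 133 and its summit 147 bp upstream of the start, where replicate 1 had 66.9 and replicate 2 had 67.2. Nearly equal signals did not give equal calls there: replicate 1 passed the IDR threshold and replicate 2 did not. The region chrV:14197736-14198041 had a signal of 112 and its summit 138 bp past the 3′ end, with 51.2 in replicate 1 and 66.4 in replicate 2. The third, chrV:14194445-14195064, had a signal of 99.9 and its summit in a coding exon 1092 bp from the start, 309 bp downstream of an internal transcript start. With 59.8 in replicate 1 and 40.7 in replicate 2, it was the weakest of the 13 regions, and 91.3% of all regions were higher. Each of the 3 regions passed in the separate list of 1 replicate only.

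The gene of the ATFS-1 antagonist, zip-3 (WBGene00012330, chrII:13951904-13957457 on the minus strand, 5554 bp), had 1 region, chrII:13956490-13957109, with a signal of 105. Its summit lay in an intron 657 bp from the start, and 86.1% of all regions were higher. Replicate 1 had 59.7 and replicate 2 had 45.6 there, and neither passed the threshold in its own list.

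The highest signal at any of these genes belonged to zip-2 (WBGene00019327, chrIII:832982-835814 on the plus strand, 2833 bp), which acts in the response to Pseudomonas aeruginosa. The region chrIII:835216-836405 had a signal of 489, with 253 in replicate 1 and 232 in replicate 2, and ranked 26 of 2416. Its summit lay 172 bp past the 3′ end of zip-2 and inside a coding exon of dos-3, a gene that overlaps the end of zip-2, so the region cannot be assigned to zip-2 alone. The region chrIII:833679-834022 lay within zip-2, with a signal of 147 and its summit in an intron 214 bp upstream of an internal transcript start. It had 90.5 in replicate 1, which passed the threshold, and 60.7 in replicate 2, which did not. A snoRNA gene, K02F3.15, lies 265 bp from that summit.

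The intracellular pathogen response gene zip-1 (WBGene00006986, chrIII:12333745-12345384 on the plus strand, 11640 bp) is the longest of the 10. Its region, chrIII:12335309-12335928, had a signal of 131 and its summit in an intron 1874 bp from the gene start. That summit lay 24 bp upstream of an internal transcript start, 1898 bp into the gene. Replicate 1 had 55.3 there, under the threshold, and replicate 2 had 71.0, over it.

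At zip-7 (WBGene00013100, chrIV:16502910-16505682 on the minus strand, 2773 bp), both regions passed in both replicates. The region chrIV:16501715-16502334 had a signal of 168 and its summit 885 bp past the 3′ end, in intergenic sequence, with 89.6 in replicate 1 and 83.5 in replicate 2. It does not touch the gene and was counted by distance. The region chrIV:16503698-16503892 had a signal of 156 and its summit in an intron 463 bp downstream of an internal transcript start. In that intron replicate 1 had 70.7 and replicate 2 had 81.2. At zip-5 (WBGene00007932, chrV:13264545-13269827 on the plus strand, 5283 bp), the region chrV:13269176-13269795 had a signal of 116, with 51.9 in replicate 1 and 62.3 in replicate 2. Its summit lay in the last part of the gene, in an intron 341 bp before the 3′ end and 290 bp downstream of an internal transcript start, and neither replicate passed alone.

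The gene zip-4 (WBGene00021552, 2652 bp on the minus strand of chromosome I, 3264111 to 3266762) had its highest summit just before the gene start, as atfs-1 did. Its region, 3266629 to 3266927, had a signal of 176 and its summit 25 bp upstream of the start. Replicate 1 had 97.0 and replicate 2 had 83.1, and both passed. The gene nol-58, which encodes a protein of box C/D small nucleolar ribonucleoproteins, starts on the other strand across a gap of 331 bp. The summit lies in that gap, within 1000 bp of both genes. The region touches zip-4 and not nol-58, but it cannot be assigned to zip-4 alone. Further annotated genes overlap zip-1 (pph-4.1), zip-3 (sre-44) and zip-4 (tyr-5), and none of them is touched by the regions described.

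The other two genes had no thresholded peak. At zip-10 (WBGene00012101, chrV:11650079-11650762 on the minus strand, 684 bp, the shortest of the 10), replicate 1 had 3 ranked peaks with a highest signal of 20.2, and replicate 2 had 3 with a highest signal of 50.9. The summits of those highest peaks lay 703 bp apart, whereas at the 8 genes with a region the highest peaks of the replicates lay 4 to 56 bp apart. The coding gene skp-1 overlaps zip-10. At zip-8 (WBGene00017755, chrIII:6478955-6481243 on the plus strand, 2289 bp), no list held a peak, the ranked lists included. Depth per library is unknown, so a ranked peak at zip-8 and a thresholded one at zip-10 were not detected rather than shown to be absent.

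In the separate lists of the replicates, 5 of the 10 genes had a thresholded region in replicate 1, against 11.6% of all protein-coding genes, and 6 in replicate 2, against 10.2%. The 5 genes called in both replicates were zip-2, zip-4, zip-7, xbp-1 and atfs-1, and 7.87% of all protein-coding genes were called in both. At atfs-1 the calls of the replicates lay at different regions, and no single region of that gene passed in both. The gene zip-1 was called in replicate 2 alone, while zip-3 and zip-5 were called in neither replicate's own list. In the wider list, made from the pooled replicates, the same 8 genes had a region, against 15.6% of all protein-coding genes. The unthresholded ranked lists say little about a gene by themselves: 9 of the 10 genes had a ranked peak in replicate 1 and in replicate 2, but so did 51.7% of all protein-coding genes in replicate 1 and 48.8% in replicate 2.

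Ordered by the mean of the highest ranked signal in the replicates, the genes ran zip-2, xbp-1, zip-4, zip-7, atfs-1, zip-1, zip-5, zip-3 and zip-10. The replicate values of zip-2 lay above those of xbp-1, and those of xbp-1 above those of zip-4, without overlap. The values of zip-4 and zip-7 overlapped. Those of zip-7 lay above those of atfs-1, and from atfs-1 to zip-10 each gene overlapped the next, so that part of the order is not settled by 2 replicates. Within each replicate, zip-1 stood above zip-5, with 55.3 against 51.9 in replicate 1 and 71.0 against 62.3 in replicate 2. The other neighbours in that part changed order between the replicates.

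**Figure D2:**
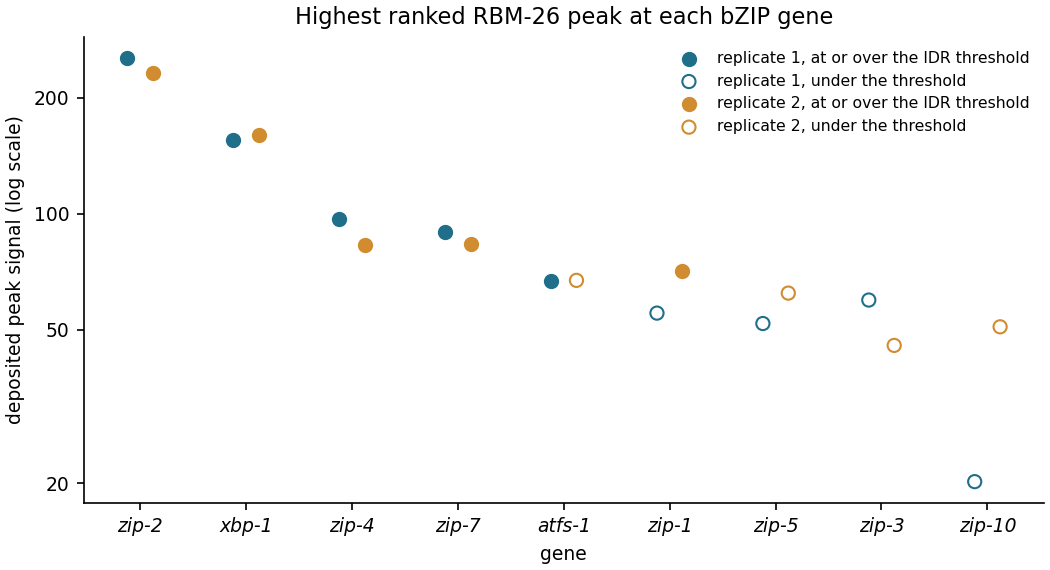
Highest ranked peak at each bZIP gene, with the deposited signal on a log y axis and the genes ordered by the mean of both replicates; filled points reached the IDR threshold and open points did not. Both replicates of zip-2, xbp-1, zip-4 and zip-7 are filled, those of zip-5, zip-3 and zip-10 are open, and zip-8 has no peak to plot.

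The ranked peaks around xbp-1, zip-2 and atfs-1 also include many that did not pass. At xbp-1 the highest peak under the threshold had 62.2, in replicate 2, 214 bp into the gene. Replicate 1 had a peak nearby, 254 bp into the gene, that passed with 81.6. At zip-2 a peak upstream of the start had 44.6 in replicate 1 and 48.0 in replicate 2, at summit positions of -970 and -877 bp from the start. At atfs-1 a peak in the second part of the gene had 35.3 in replicate 1 and 41.4 in replicate 2, at 3099 and 2928 bp from the start. Both were under the IDR threshold in both replicates. The zip-2 peak was the one just outside the threshold when the replicates were compared, with a −log10 IDR of 1.97 and a signal of 88.8. A peak 95 bp past the end of zip-4 followed, with 1.94 and 93.6. Just inside stood the coding-exon peak of atfs-1 with 2.03 and 99.9 and the zip-3 peak with 2.23 and 105. The line between called and uncalled in the conservative list thus runs through closely spaced values. Both the zip-2 peak upstream of the start and the peak past the end of zip-4 were called in the wider list.

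**Figure D3:**
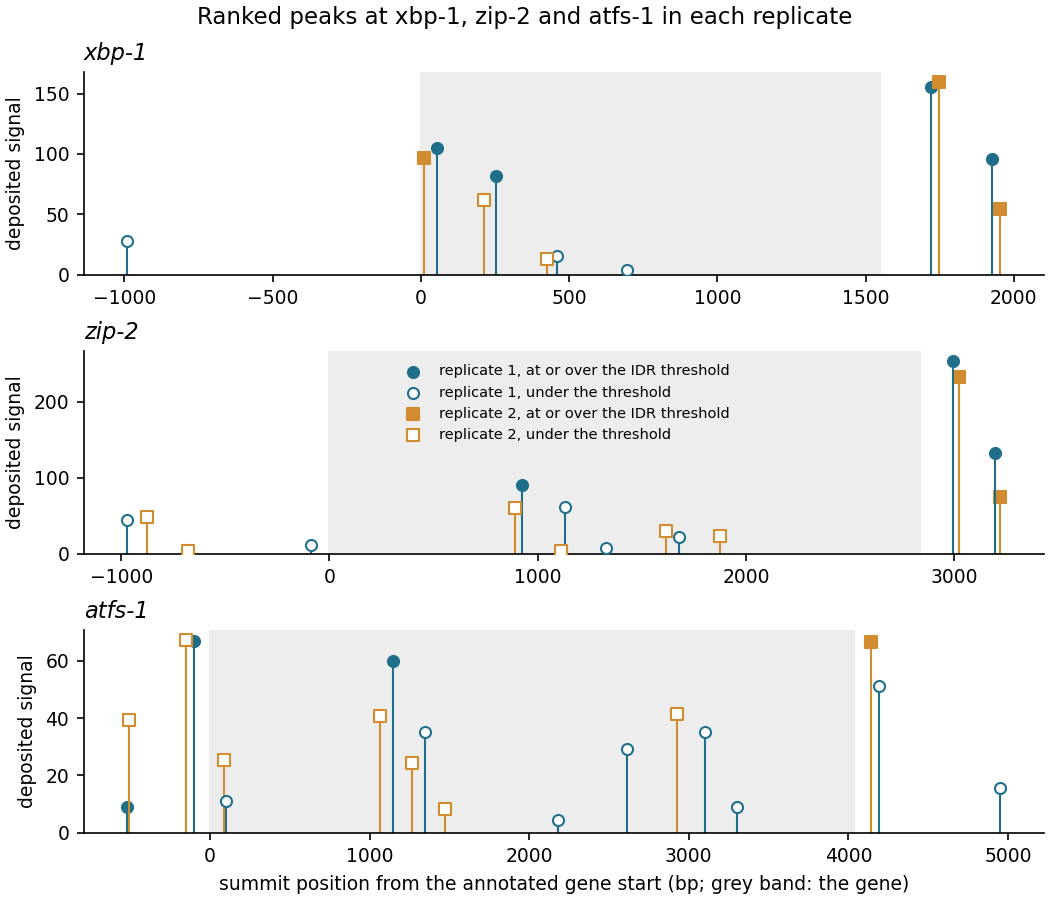
Every ranked peak at xbp-1, zip-2 and atfs-1, with summit position from the gene start in bp on the x axis and deposited signal on the y axis; the grey band is the gene, circles are replicate 1 and squares replicate 2, filled where the IDR threshold was reached. The tallest pairs stand past the 3′ end of xbp-1 (156 and 160) and of zip-2 (253 and 232), while no peak of atfs-1 exceeds 67.2.

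The 13 regions were close in strength to the list as a whole. Their median signal was 147, with a range of 99.9 to 489, against a median of 144 and quartiles of 115 and 200.7 over all 2416 regions, and 7 of the 13 lay above the overall median. The log2 ratio of replicate 1 to replicate 2 had a median of 0.10 at these regions, between -0.38 and 0.58, and a median of 0.10 over the 2362 regions matched in both replicates, with quartiles of -0.21 and 0.37. Of the 13 regions, 7 were higher in replicate 1 and 6 in replicate 2. In the replicates' own thresholded lists, 6 of the 13 were present in both, 3 in replicate 1 alone, 2 in replicate 2 alone and 2 in neither, and 45.4% of all regions were present in both.

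**Figure D4:**
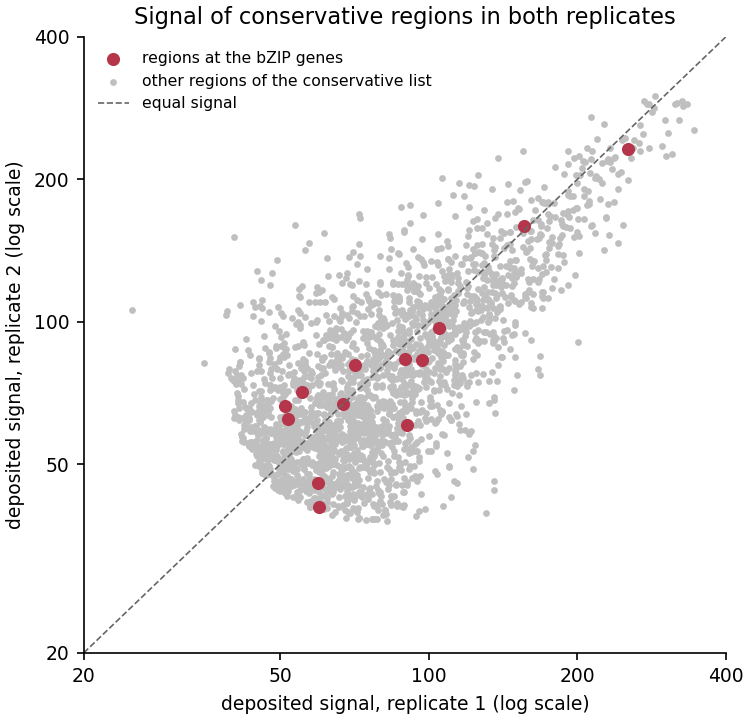
Deposited signal of each conservative region in replicate 1 (x axis) and replicate 2 (y axis), both on log scales, with the 13 regions at bZIP genes in red, the other regions in grey and equal signal as a dashed line. The red points lie within the grey cloud and on both sides of the line, with the zip-2 region at 253 and 232 near its upper end.

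By position, 5 of the 13 summits lay in an intron, against 15.7% of all summits, and 2 lay within 500 bp upstream of a protein-coding gene start, against 31.1%. Coding exons held 2, against 15% of all summits, a 5′ untranslated region held 1, against 2.9%, and intergenic sequence held 3, against 22.5%. None lay in a 3′ untranslated region, against 5.38% of all summits, or a non-coding exon, against 7.41%. Of the 5 intronic summits, 4, those of zip-1, zip-2, zip-5 and zip-7, lay within 500 bp of an annotated transcript start of their gene, against 114 of the 375 intronic summits in protein-coding genes, or 30.4%. These counts are small and were not tested. No summit lay within 250 bp of a small non-coding RNA gene, a count for which no share over all regions is given.

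The sequence at the summits was slightly richer in GC than at regions in general, with a median of 49.5% and a range of 38.6% to 52.5% within 50 bp on either side of the summit, against a median of 46.5% over all regions. The letters ACGTG, searched on both strands and contained in CACGTG, occurred in 4 of these 13 windows, at both ends of xbp-1 (at its start beyond the stretch printed), before atfs-1 and past the end of zip-2, against 15.4% of all windows. Within 100 bp on either side they occurred in 8 of 13, against 25.3%. CACGTG occurred in 1 window of either length, against 5.55% of all shorter windows and 8.98% of all longer ones. TGACGT occurred in none of the shorter windows, against 4.06%, and in 2 of the longer ones, at the start of xbp-1 and in zip-5, against 7.66%. TTGCGCAA, the palindrome of the C/EBP branch of the family, occurred in none at either length, against 0.414% and 0.786%.
Among letters not tied to bZIP binding, GAGAGA occurred in 3 of 13 shorter windows, against 18.3%, and in 4 longer ones, against 30.5%. TTTTTT occurred in 1 shorter window, against 23.3%, and in 7 longer ones, against 46.4%. The splice acceptor letters TTTCAG occurred in 1 shorter window, against 9.85%, and in 3 longer ones, against 22.2%. AATAAA, the letters of the polyadenylation signal, occurred in none of the windows of either length, against 14.1% of all shorter windows and 30.2% of all longer ones. All these sequences were searched on both strands, and a match describes the letters in the window only.

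Other bZIP genes carried regions as well. Beside the 8 of 10 genes above, 10 of 19 further genes of the family found in the annotation had a region in the conservative list. That is 52.6%, against 14.5% of all protein-coding genes. They were zip-11, zip-12, skn-1, atf-4, atf-6, atf-7, cebp-1, crh-1, crh-2 and fos-1. The signals of 489 at zip-2 and 313 at xbp-1 stood above the highest signal of each of these 10, which ran from 121 to 312 with a median of 167. For xbp-1 this order held in the conservative list and not in each replicate, where its 156 in replicate 1 was below the 177 of cebp-1 and its 160 in replicate 2 below the 195 of atf-7. The gene atf-7, which acts with the p38 pathway in immunity, had the highest, 312, with 121 in replicate 1 and 195 in replicate 2, in a region past its 3′ end that also touches cpg-1. For cebp-1, known from axon regeneration, the signal was 304, in a region 724 bp upstream with 177 in replicate 1 and 131 in replicate 2. At skn-1, the oxidative stress regulator, the highest of 3 regions had 176 and also touches csn-5. Its summit lay 26 bp past the end of skn-1, in a 3′ untranslated region that is therefore not that of skn-1. The ER stress factor gene atf-6 had 142 at 302 bp upstream, with 96.7 in replicate 1 and 43.3 in replicate 2, and the translation-controlled atf-4 had 122. The neighbour of zip-1, zip-12, had 137 at 197 bp upstream. The summit of fos-1, with 163, lay inside the snoRNA gene F29G9.19.
The remaining genes with a region were crh-1 with 172, zip-11 with 170 and crh-2 with 121. No region was found at zip-6, zip-9, sknr-1, atf-2, atf-8, ces-2, cebp-2, jun-1 or let-607.

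Genes that act with these factors were counted by pathway, with no test between the lists. Each share stands beside the 14.5% of all protein-coding genes with a conservative region. Of 21 genes of the ER unfolded protein response, 12 had a region, or 57.1%. The strongest were cdc-48.1, an AAA ATPase that extracts misfolded proteins, with 429, and the BiP chaperone gene hsp-3 with 390, each with its summit upstream of its own start. Next came the calreticulin gene crt-1 with 255 and the GRP94 gene enpl-1 with 208. The protein disulphide isomerase genes pdi-1 and pdi-2 had 121 and 122, and the stress kinase gene pek-1 had 122. Others lay at a neighbour: the 157 near pdi-3 came from a region that does not touch it and is nearest to the start of ubql-1. The gene pdi-3 is itself touched by weaker regions, with 137.1 and 100.9. The 125 at the ubiquitin ligase gene sel-11 lay upstream of F55A11.4, and the region with 158 at cdc-48.2 also touches ints-11. The 97.7 near the RNA ligase gene rtcb-1, which joins the cut ends of xbp-1 RNA, came from a region that touches F16A11.1 and not rtcb-1. The gene of the xbp-1 splicing enzyme, ire-1, had none, and neither did the second BiP gene hsp-4. Of 14 genes of the mitochondrial unfolded protein response, 6 had a region, or 42.9%, several of them nearest to another gene. The signal of 576 near the chaperonin gene hsp-60 came from a region that touches Y22D7AL.10 and not hsp-60. Weaker regions, with 191.5 and 32.3, do touch hsp-60. The summit with 214 at the mitochondrial HSP70 gene hsp-6 lay upstream of adss-1, in a region that also touches hsp-6. A further region, with 194, had its summit 350 bp upstream of hsp-6, nearest the start of C37H5.5. The signal of 242 near the demethylase gene jmjd-1.2 lay nearest F29B9.11. The protease gene clpp-1 had 153 in a region that also touches mdt-22, ubl-5 had 153 and dve-1 had 95.7. In the integrated stress response, 3 of 7 genes had a region, or 42.9%: gcn-1 with 260, pek-1 and atf-4.
Of 17 genes of the pathogen response, in which zip-1 and zip-2 act, 2 had a region, or 11.8%, which is close to the 14.5% of all genes. They were tir-1 and pnp-1. At tir-1 the signal of 300.1 lay in a coding exon of the ribosomal protein gene rpl-3. At pnp-1 the 158 lay nearest T21D12.7, and a weaker region, with 98.4, touches pnp-1. The zip-2 target irg-1 and the zip-1 target pals-5 had no region.

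**Figure D5:**
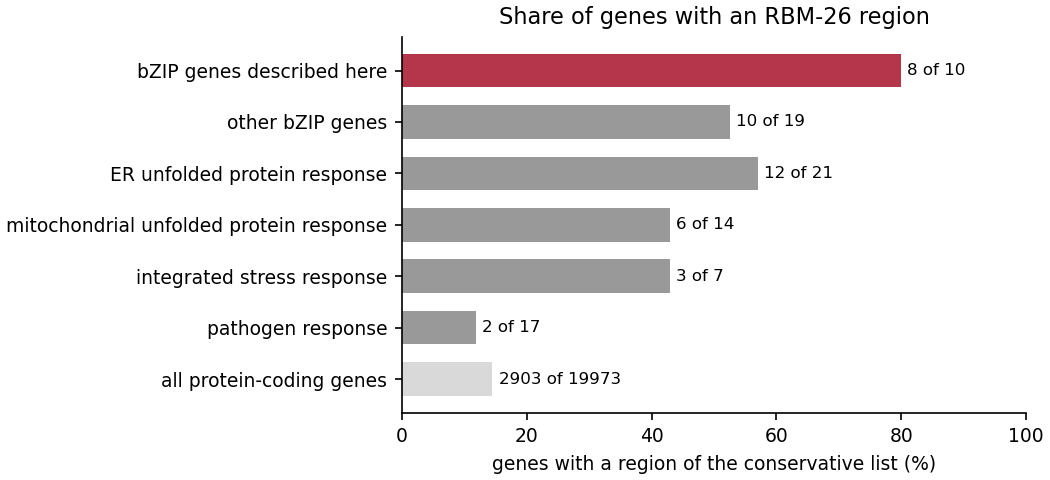
Share of genes with a region in the conservative list, in percent on the x axis, for the 10 bZIP genes, 19 other bZIP genes, 4 pathway lists and all protein-coding genes, with the counts written at the bars. The 10 bZIP genes stand at 8 of 10, the pathogen response list at 2 of 17, and all protein-coding genes at 2903 of 19973.

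For the 3 genes of highest conservative signal, the gene most like it was sought among 1324 genes by the distance between their pairs of replicate signals on a log10 scale. The nearest to xbp-1 was the nuclear pore gene npp-8, with 156 in replicate 1 and 160 in replicate 2, at a distance of 0.00106. The nearest to zip-4 was Y65B4BL.7, with 96.5 in replicate 1 and 83.5 in replicate 2, at 0.00323. The nearest to zip-2 was F59C6.18, with 261 in replicate 1 and 242 in replicate 2, at 0.0217. Each likeness rests on 2 values per gene.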

How the data were processed

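The authors deposited peak lists on ce11, per the labels: for each replicate 1 thresholded and 1 ranked list, and for both together a conservative (3045 rows) and a wider (3344 rows) thresholded list with their ranked lists. The aligner is not given in the sources used here, nor are the peak caller and the depth, and the possible control named in the labels was not analysed here. Each peak's deposited signal was set by the authors, with no stated relation to depth, and was used to rank and describe peaks within a list. The replicates' values were also set side by side, taken as a ratio and averaged to order the genes, with no adjustment for depth. The deposited −log10 global IDR of a ranked row was compared with 2, an IDR of 0.01; all 3045 conservative rows stand in 1 ranked list, called here the comparison of the replicates.

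Overlapping rows were merged, keeping the summit and signal of the highest row, which gave 2416 conservative regions on the 6 nuclear chromosomes. Genes and transcripts came from Ensembl release 115 (WBcel235) and sequence from the reference genome of that build. A region's value in a replicate is that of the ranked row whose summit was nearest, within 250 bp; these values come from the replicates' own lists, not from the unnamed paired columns of the comparison that had been planned. A gene without symbol match (atf-5) was left out. Summits were classed in this order: within 500 bp upstream of a protein-coding gene start, coding exon, untranslated region, non-coding exon, intron, intergenic.

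The 10 genes, the pathway lists and the choices above were made with earlier results of these data known. The text names all 10 genes, each list gene with a conservative region, genes touched by or nearest to those regions, and for the 3 highest genes the one with the most similar pair of replicate signals. There is 1 group, so no test was run and no p-value is given; replicate values show only the spread between these 2 samples. The assignment of summits to genes was tested on simulated data. Alternatives were the distance, touching only, the nearest start, the 500 highest regions, the wider list and each replicate alone. Python 3.11.15, pandas 2.3.3, numpy 2.4.6 and matplotlib 3.10.9 were used.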

Additional observations from a re-analysis of the deposited data

How the results depend on the processing

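Of the 10 bZIP genes, 8 had a conservative region, and this count stayed at 8 with a distance of 500 or 2000 bp, with touching regions only and in the wider list. Assigning each region to the nearest start within 1000 bp left 5, which removes the regions past a 3′ end or deep in a gene. Keeping the 500 regions of highest signal left 2. Using a single replicate's thresholded list left 5 to 6. For the other bZIP genes the count of 10 became 2 with the 500 highest regions and 6 to 11 with a single replicate. No share of all protein-coding genes is given for the nearest start or the 500 highest regions. Those counts therefore cannot be read against one. The 3 genes whose highest summit is intronic became 0 to 1 with a single replicate; the intronic regions of zip-3 and zip-5 were in neither replicate's list. The signals of all 8 genes were the same in the wider list, where the same rows carry the same values. They were lower in each replicate's own ranked list, but the conservative signals come from both replicates together. Neither comparison therefore tests the processing. No paired analysis was possible because there is 1 group. With 2 replicates and an unknown depth, the order of zip-4 and zip-7, the order from atfs-1 down, and the lack of a thresholded peak at zip-8 and zip-10 cannot be settled.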
